A study of Saccharomyces cerevisiae with 21 samples.

Results

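The aminoacyl-tRNA synthetases of budding yeast were followed through glucose starvation and multi-day growth in ribosome-protected fragment (RPF) libraries. They comprise 34 genes of the 5767 with RPF reads in at least 1 library. The genes were chosen by name as encoding an enzyme that charges a tRNA, and measured values were not used for the choice. They form 2 classes, 21 genes for enzymes of the cytosol, some of which also serve mitochondria, and 13 genes for enzymes that work in mitochondria only. All cells were BY4741, a haploid MATa strain that the labels call wild-type and that carries auxotrophic deletions of HIS3, LEU2, MET15 and URA3. Libraries with cycloheximide (CHX, which halts ribosomes on the mRNA) added 1 min before harvest came from log phase in synthetic complete medium and from cells moved to the same medium without glucose for 15 min, with 2 replicates each. A time course without CHX covered log phase and 1, 5 and 15 min with 2 replicates each, and 10, 20 and 30 min with 1 library each, and its pools also held 1 library at 15 min with 1 min of CHX. Multi-day growth in YPD without CHX gave 1 library each for log phase, 1 day (postdiauxic shift) and 5 days (stationary phase).

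Each synthetase joins an amino acid to its tRNAs, the step that reads the genetic code into protein. The enzymes fall into catalytic classes I and II, which bind ATP with unrelated folds. Mitochondria translate a few messages of their own and charge their own tRNAs with imported enzymes, all of them made from nuclear genes. In yeast ALA1, GRS1, HTS1 and VAS1 each give a cytosolic and a mitochondrial form from 1 gene, whereas 13 mitochondrial enzymes have a gene of their own and a separate cytosolic counterpart. Gcn4, the activator of amino acid synthesis genes, binds DNA around the core TGACTC.

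The total of RPF reads set how well each class could be measured. The pretreated libraries held 4273703 and 5170260 reads in log phase and 2000513 and 1862525 after 15 min. In the time course replicate 1 held between 3523240 and 6146038 reads, replicate 2 between 94585 and 135958, and the libraries at 10, 20 and 30 min 71816, 73074 and 72950. The YPD libraries held 652361, 575896 and 169545 reads in log phase, at 1 day and at 5 days. Intervals given below cover counting error only. The labels name rRNA removal for every RPF library used here except pretreated 15 min replicate 2.

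Over whole genes the classes differed in the codons they use, and the starts of 3 pairs of genes for the same amino acid are shown as examples. Printed are the first 60 coding bases, 5′ to 3′, from the R64 genome of RefSeq. Capitals mark the codon that genes of cytosolic ribosomal proteins use most for each amino acid. Methionine and tryptophan codons, which have no alternative, are left in lower case.
KRS1 (lysine, cytosol, chrIV:525440-525499, + strand): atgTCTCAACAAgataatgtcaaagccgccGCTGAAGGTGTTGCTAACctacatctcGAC
MSK1 (lysine, mitochondria, chrXIV:488386-488445, + strand): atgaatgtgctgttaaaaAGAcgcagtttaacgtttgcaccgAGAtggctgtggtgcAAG
SES1 (serine, cytosol, chrIV:489508-489567, + strand): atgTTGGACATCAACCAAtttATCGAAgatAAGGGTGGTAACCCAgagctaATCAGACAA
DIA4 (serine, mitochondria, chrVIII:127780-127839, + strand): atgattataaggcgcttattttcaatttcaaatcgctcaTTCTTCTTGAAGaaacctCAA
WRS1 (tryptophan, cytosol, chrXV:137766-137825, - strand): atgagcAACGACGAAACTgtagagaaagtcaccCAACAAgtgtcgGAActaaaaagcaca
MSW1 (tryptophan, mitochondria, chrIV:1004004-1004063, + strand): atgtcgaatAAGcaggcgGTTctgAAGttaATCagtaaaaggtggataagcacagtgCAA

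Of the 19 codons after the start, 10 in KRS1 and 15 in SES1 were preferred ones, against 3 in MSK1 and 5 in DIA4. WRS1 had 7 and MSW1 5. The starts alone did not separate the classes. CDC60 had 10 against 3 in NAM2, but DED81 had 10 and SLM5 9. YDR341C and MSR1 had 7 each, and MES1 had 4 against 7 in MSM1. Methionine and tryptophan codons were counted in the 19 but left out of the shares over whole genes. Over whole genes, 46.6% to 60.1% of codons of the cytosolic enzymes were the preferred ones (median 54.7%), against 32.2% to 44.3% (median 36.4%) in the mitochondrial enzymes and a median of 38.5% over 5736 genes. The codon adaptation index scores a gene by how closely its codons follow those of the ribosomal protein genes. It lay between 0.340 and 0.544 in the cytosolic class and between 0.151 and 0.232 in the mitochondrial class, with no overlap, and had a median of 0.201 over all genes.

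The letters TGACTC, on either strand within 400 bases before the start codon, were found for 10 of 21 cytosolic enzymes (47.6%), 2 of 13 mitochondrial enzymes (15.4%) and 10.6% of 5736 genes. The stretch around the match is shown for 4 of these genes to give its place, with the motif in capitals, as read on the strand of the gene.
ALA1 (chrXV:949139-949168, - strand): gattaaggaactTGACTCtttctttcaaga
KRS1 (chrIV:525294-525323, + strand): tgaatgatgaaaTGACTCttaatgaacttc
VAS1 (chrVII:672076-672105, + strand): atttttttagaaGAGTCAcccatacagcct
DED81 (chrVIII:143802-143831, - strand): caagacattcagTGACTCaagcatcgctta
The other carriers were ILS1, SES1, THS1, YHR020W, YNL247W and YDR341C in the cytosolic class and MSW1 and SLM5 in the mitochondrial class. DED81, for the asparaginyl enzyme, and YHR020W, for the prolyl enzyme, point away from each other on chromosome VIII and share 1 match, so 10 genes hold 9 separate matches. A match is a description of the letters and was not tested for binding.

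RPF density separated the classes completely in log phase. Density is given as TPM, reads per coding length scaled to the same sum in each library. By the mean of the pretreated libraries KRS1, the lysyl enzyme, was the highest cytosolic gene with 988 and 814 TPM, followed by SES1, the seryl enzyme, with 590 and 830, although SES1 was the higher in replicate 2. The cytosolic gene with the lowest density was YNL247W (also called CRS1), the cysteinyl enzyme, with 188 and 184 TPM. Every cytosolic gene therefore lay at 184 TPM or more in both libraries, and the highest and the lowest differed 4.85-fold in their means. The SD between replicates was 123 TPM for KRS1 and 170 TPM for SES1 (n = 2), so the order of neighbours such as these was not resolved. RPF counts hold the amount of mRNA and its translation together, and the RNA libraries were not used here.

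In the mitochondrial class MSW1, the tryptophanyl enzyme, stood highest with 16.4 and 14.2 TPM, and ISM1, the isoleucyl enzyme, lowest with 3.002 and 5.44. The class median was 6.75 TPM against 422 in the cytosolic class and 25.96 over 5535 genes. MSW1 ranked 3555 of those genes and KRS1 ranked 214. The lowest cytosolic gene, YNL247W, ranked 735. In the deep log phase library of the time course the medians were 340 and 9.62 TPM, with DED81 (571 TPM) and KRS1 (560.5 TPM) at the top and YNL247W (123 TPM) again lowest of the cytosolic genes. In YPD log phase they were 387 and 7.99 TPM, with KRS1 (706 TPM) and MSW1 (20.0 TPM) leading. The classes overlapped in 1 library, that of 1 day in YPD, in which WRS1 had 36.4 TPM and MSF1 37.9.

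**Figure D1:**
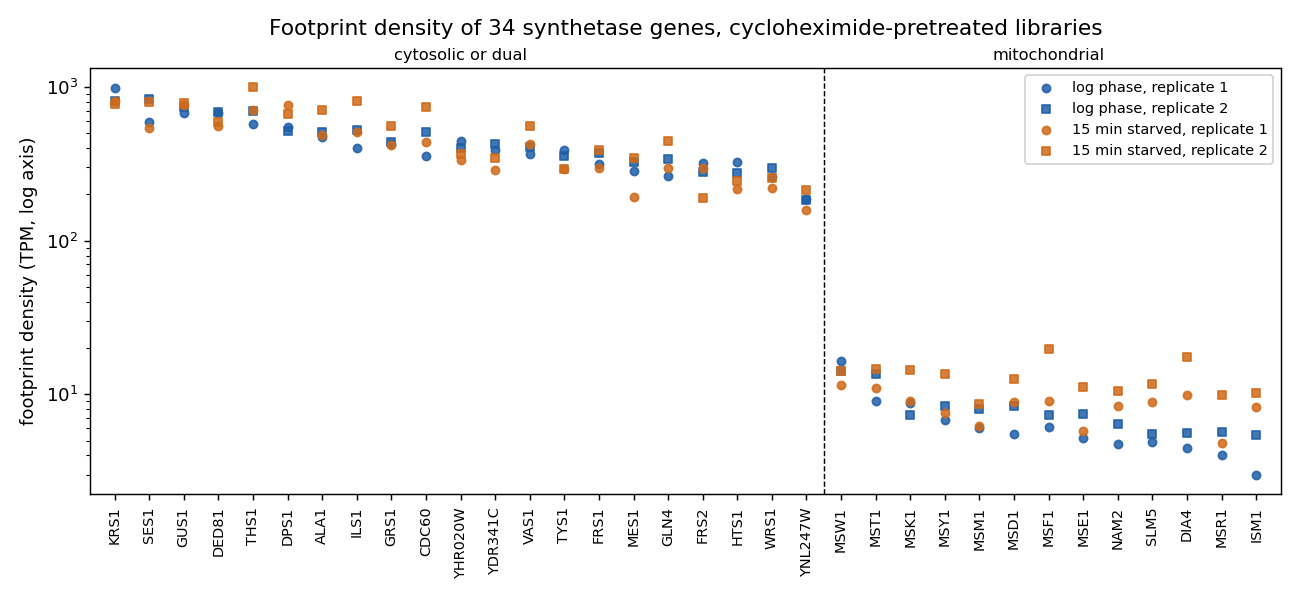
RPF density (TPM, log axis) of each of the 34 genes in the 4 CHX-pretreated libraries, with log phase in blue and 15 min of starvation in orange, circles for replicate 1 and squares for replicate 2. Genes are ordered within each class by mean log phase density, and every cytosolic gene lies above every mitochondrial gene in all 4 libraries.

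Within the cytosolic class genes with higher codon adaptation had higher RPF density. Across the 21 genes Pearson's r between the index and log2 TPM in pretreated log phase was 0.844 and Spearman's rho 0.874. Across the 13 mitochondrial genes r was 0.293 and rho 0.214. Genes within a library share its depth and are not independent replicates, so these are descriptions and no test was made.

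**Figure D2:**
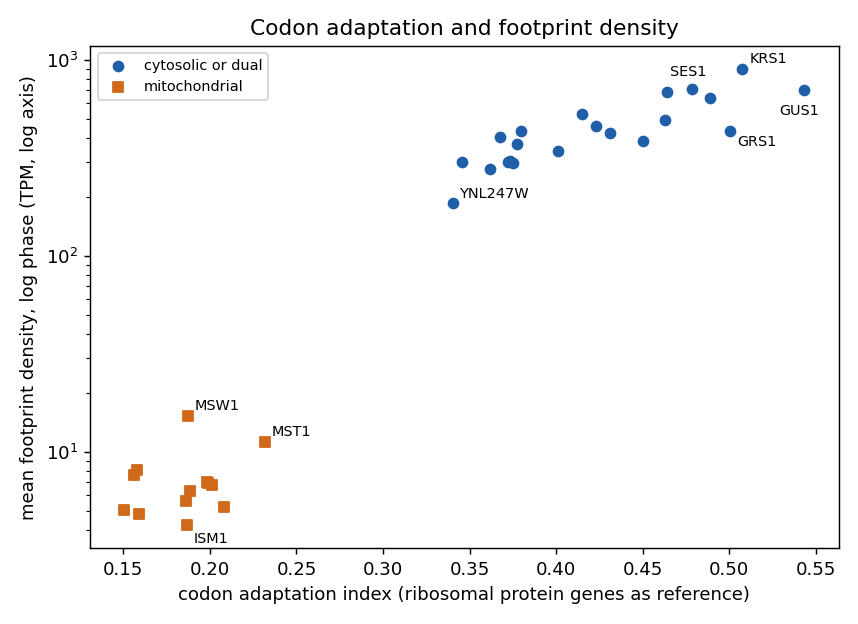
Mean RPF density in pretreated log phase (TPM, log axis, 2 libraries) against the codon adaptation index, with 1 point per gene. The cytosolic genes (blue circles, 0.340 to 0.544) form a rising band and the mitochondrial genes (orange squares, 0.151 to 0.232) a separate group at low density.

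The same separation held for each amino acid with 2 genes. In pretreated log phase replicate 1 the cytosolic gene of the 13 pairs had 15.8 to 138 times the density of its mitochondrial counterpart, with a median of 95.8, and in replicate 2 it had 20.8 to 149 times, with a median of 75.3. The tryptophanyl pair WRS1 and MSW1 was the closest in all 11 libraries in which ratios were taken, with 15.8 and 20.8 in pretreated log phase and 11.6 in the deep log phase library without CHX. Wide ratios were found for the asparaginyl pair DED81 and SLM5 (138 and 125), the seryl pair SES1 and DIA4 (131 and 149) and the isoleucyl pair ILS1 and ISM1 (134 and 95.8). The glutamyl pair GUS1 and MSE1 (129 and 99.5), the lysyl pair KRS1 and MSK1 (112 and 110), the aspartyl pair DPS1 and MSD1 (100 and 61.0) and the arginyl pair YDR341C and MSR1 (95.8 and 75.3) lay between. Lower ratios were those of the leucyl pair CDC60 and NAM2 (74.4 and 79.4), the threonyl pair THS1 and MST1 (63.3 and 51.7), the tyrosyl pair TYS1 and MSY1 (57.1 and 42.4), the phenylalanyl pair FRS1 and MSF1 (51.7 and 50.4) and the methionyl pair MES1 and MSM1 (46.9 and 40.7). The cytosolic gene was the longer in 10 of the 13 pairs. Since no mitochondrial member had more than 110 reads in these libraries, the ranking inside this group was not resolved.

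FRS1 and FRS2 encode the β and α subunits of cytosolic phenylalanyl-tRNA synthetase, an enzyme with equal numbers of both. FRS1 had 316.6 and 371.5 TPM in pretreated log phase and FRS2 318.0 and 281.5, so that their ratio was 0.996 and 1.32. In the deep time course libraries the ratio was 0.961 in log phase, 1.00 at 1 min, 1.02 at 5 min and 1.06 at 15 min. It stood at 2.04 in pretreated 15 min replicate 2 and at 1.00 in replicate 1 of the same condition. In YPD the ratio was 1.22 in log phase, 0.678 at 1 day (121 and 151 reads) and 0.752 at 5 days (16 and 18 reads). At 1 day scaled reads were 4.01-fold lower for FRS1 (95% counting interval 3.28 to 4.93) and 2.22-fold lower for FRS2 (1.83 to 2.71), so that the order of the subunits turned.

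No synthetase gene passed the test for a change in RPF counts after 15 min of starvation in the pretreated libraries. The test was edgeR's quasi-likelihood test over 5090 genes, in which 12.7% were called either way at an adjusted p under 0.05. Of the 21 cytosolic genes 7 had positive and 14 negative log2 fold changes, from -0.61 to 0.25 with a median of -0.25, and of the 13 mitochondrial genes 10 were positive and 3 negative, with a median of 0.32. The median over all genes was -0.00329. At an unadjusted p under 0.05 the counts were 0 of 21 and 2 of 13 by edgeR. By DESeq2 they were 0 of 21 and 1 of 13, with none called at the adjusted threshold. These counts and those of signs have no all-gene share beside them and are not read as a trait of either class.

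Among the mitochondrial genes the smallest p was that of DIA4, the seryl enzyme. It had 7.02 and 8.51 CPM (RPF reads scaled to a common library total) in log phase and 13.5 and 22.0 CPM in starvation, with 27 to 44 reads per library. Both starved libraries were above both log phase libraries, with a log2 fold change of 1.17 (SE 0.33, adjusted p = 0.0641, edgeR). With the replicate number as a block, 840 genes were called higher (16.5% of 5090) and DIA4 (adjusted p = 0.0269) and ISM1 (log2 fold change 0.92, adjusted p = 0.0498) were among them. YDR341C, the arginyl enzyme, had the smallest p of the cytosolic genes, with 825 and 880 CPM in log phase and 537 and 591 CPM in starvation (log2 fold change -0.59, SE 0.28, adjusted p = 0.191, edgeR).

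As a share of all RPF reads the cytosolic class took 2.20% and 2.35% in pretreated log phase and 1.94% and 2.26% after 15 min of starvation. The mitochondrial class took 0.0161% and 0.0197% in log phase and 0.0193% and 0.0266% in starvation. For both classes the ranges of the 2 conditions overlapped. Without ribosomal protein genes in the denominator the cytosolic share was 2.73% and 2.92% in log phase and 2.16% and 2.43% in starvation, without overlap. The mitochondrial ranges still overlapped. The number of cytosolic reads for each mitochondrial read was 137 and 119 in log phase and 101 and 85.2 in starvation. Replicate 2 of the starved cells, the library without named rRNA removal, had the lowest of these ratios, and the part of library preparation in it was not tested.

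RPF reads lay further toward the 3′ end of most cytosolic synthetase messages in the pretreated starved cells than in log phase. This was read from the polarity score, which is negative where reads lie toward the 5′ end of a gene and positive where they lie toward the 3′ end. In log phase 20 of the 21 cytosolic genes were below 0 in both replicates, and after 15 min 17 were above 0 in both, as were 82.1% and 50.1% of the 3979 genes tested. Both starved libraries exceeded both log phase libraries for all 21 cytosolic genes. They did so for 5 of the 9 mitochondrial genes that exceeded 25 reads in every pretreated library, and for 71.8% of the 3979 genes that did. The cytosolic genes had 498 to 9840 reads per library and these 9 mitochondrial genes 26 to 110. No set of genes of like depth was compared, and the part of depth in these counts was not tested.

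By limma, 16 of 21 cytosolic genes and 2 of 9 mitochondrial genes rose and none fell, beside 41.5% of 3979 genes that were higher. The median change was 0.25 in the cytosolic class, 0.19 in the mitochondrial class and 0.18 over all genes. The cytosolic changes ranged from 0.08 (DPS1, adjusted p = 0.262) to 0.32. The difference between the classes, which also differ in depth, was not tested. MSE1, MSM1, MSY1 and MSR1 had too few reads.

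GRS1, the glycyl enzyme, had scores of -0.162 and -0.127 in log phase and 0.121 and 0.238 in starvation. Its rise of 0.32 was the largest of the cytosolic class (SE 0.058, adjusted p = 0.0117, limma). FRS1 went from -0.0721 and -0.0860 to 0.211 and 0.255, a rise of 0.31 (SE 0.050, adjusted p = 0.0117, limma). In both genes the replicates of a condition lay closer to each other than the conditions did.

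CDC60, the leucyl enzyme and among the longest of these messages with 3273 coding bases, went from -0.0671 and -0.000561 to 0.236 and 0.311 (rise 0.31, SE 0.056, adjusted p = 0.0117, limma). VAS1, the valyl enzyme, with 3315 coding bases, went from -0.170 and -0.102 to 0.123 and 0.220 (rise 0.31, SE 0.058, adjusted p = 0.0119, limma). The other genes called were ALA1 (alanyl), FRS2, GUS1 (glutamyl), HTS1 (histidyl), ILS1 (isoleucyl), KRS1, MES1 (methionyl), SES1, THS1 (threonyl), YHR020W, YNL247W and YDR341C. Those not called were DED81, DPS1 (aspartyl), GLN4 (glutaminyl), TYS1 (tyrosyl) and WRS1 (tryptophanyl), with adjusted p between 0.0522 and 0.262.

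In the mitochondrial class ISM1 went from -0.267 and -0.182 to 0.0662 and 0.223 on 45 to 96 reads per library, a rise of 0.37 (SE 0.095, adjusted p = 0.0223, limma). MSD1, the aspartyl enzyme, went from -0.173 and -0.279 to 0.0846 and 0.0439 on 36 to 98 reads, a rise of 0.29 (SE 0.090, adjusted p = 0.0384, limma). The conditions did not overlap in these genes, nor in MST1 (threonyl), MSW1 and SLM5, which were not called, whereas DIA4, MSF1 (phenylalanyl), MSK1 (lysyl) and NAM2 (leucyl) overlapped. With the replicate block 20 of 21 cytosolic and 3 of 9 mitochondrial genes were called, beside 56.1% of all genes, the addition in mitochondria being MSW1 (adjusted p = 0.0242). Without log phase replicate 1, and likewise without log phase replicate 2, none of the 34 was called and the smallest adjusted p among GRS1, FRS1, CDC60 and VAS1 was 0.111, while 0 and 1 of all genes were called.

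**Figure D3:**
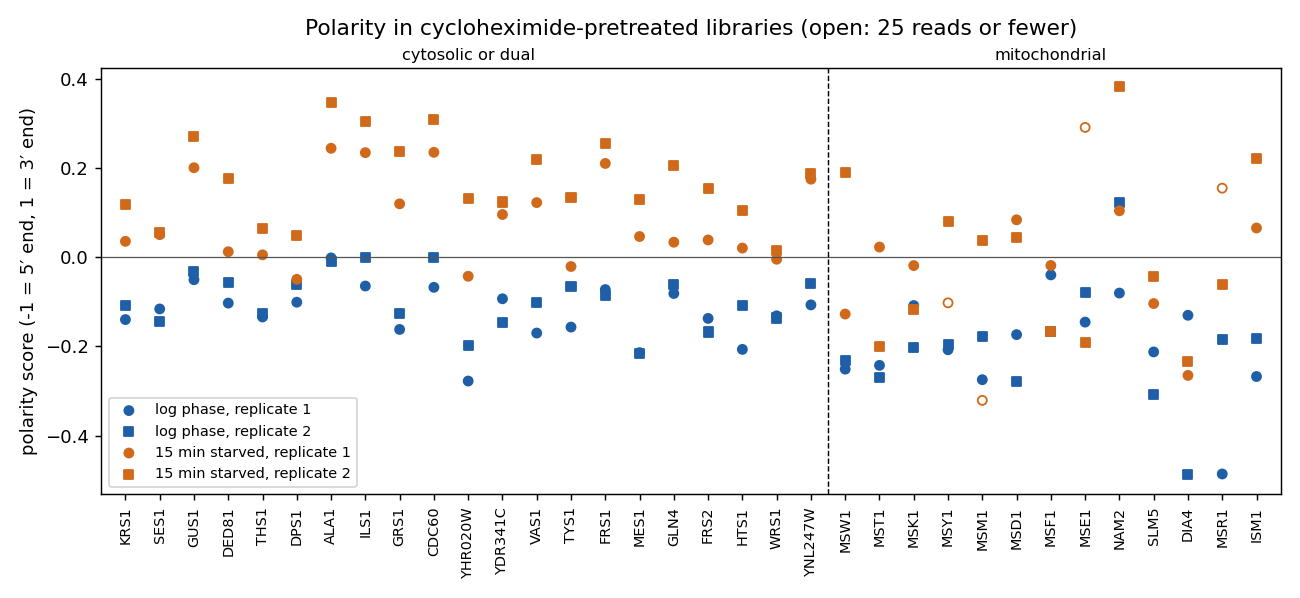
Polarity score of each gene in the 4 pretreated libraries (below 0 toward the 5′ end, above 0 toward the 3′ end), with log phase in blue, 15 min of starvation in orange, circles for replicate 1, squares for replicate 2 and open symbols for 25 reads or fewer. In all 21 cytosolic genes both orange symbols lie above both blue ones, whereas several mitochondrial genes, which had far fewer reads, overlap.

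Coding length was set beside the change in polarity in both experiments, without a test of the difference between them. Across the 21 cytosolic genes Pearson's r between coding length and the change was 0.617 and Spearman's rho 0.601, against 0.382 and 0.441 across 3979 genes. Across the 20 cytosolic genes of the time course r between length and the change from log phase was -0.304 at 1 min, -0.110 at 5 min and 0.053 at 15 min, against -0.367, -0.029 and 0.138 across 488 genes. At these times Spearman's rho was -0.18, -0.047 and 0.120, against -0.42, 0.143 and 0.310 across the 488 genes. Between 1 and 15 min r was 0.430 and rho 0.356, against 0.429 and 0.630. These values are descriptions across genes of the same libraries. In the pretreated libraries the longest genes VAS1, CDC60, ILS1 (3219 coding bases) and ALA1 (2877 coding bases) rose by 0.30 or 0.31, but so did FRS1 with 1788 coding bases, and GRS1, with 2004, rose most. The shortest gene, TYS1 with 1185 coding bases, had a change of 0.17 (adjusted p = 0.0809, limma), above that of DPS1 with 1674.

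In the time course without CHX no synthetase gene passed the test for RPF counts at 1, 5 or 15 min, the times with replicates. Over 5255 genes edgeR called 0% at 1 min, 0% at 5 min and 0.152% at 15 min against log phase, and 0.019% at 15 min against 1 min. At an unadjusted p under 0.05 the synthetase genes numbered 0, 0, 1 and 0. DESeq2 also called none of them, with 0, 0, 1 and 0 at the unadjusted threshold. All-gene shares were not set beside these unadjusted counts. The median log2 fold change of the cytosolic class was 0.17 at 1 min, 0.20 at 5 min and 0.14 at 15 min, and that of the mitochondrial class 0.14, 0.03 and 0.05. Between 1 and 15 min the medians were -0.05 and -0.14. Mitochondrial genes had 0 to 7 reads in the replicate 2 libraries, so their changes were not detectable at this depth.

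DPS1, the aspartyl enzyme, had the smallest p at 15 min. It had 952 and 814 CPM in log phase, 1075 and 1072 at 1 min, 1130 and 897 at 5 min and 1290 and 1327 at 15 min. Both 15 min libraries were above all others of the fit, with a log2 fold change against log phase of 0.56 (SE 0.20, adjusted p = 0.790, edgeR). With the replicate block DPS1 was called (log2 fold change 0.55, adjusted p = 0.000902), the sole synthetase gene among 291 genes called either way (5.54% of 5255). The sample key assigns the 15 min replicates to the opposite sequencing pools, and with the block by pool the adjusted p was 0.932. In the single libraries it had 1114 CPM at 10 min, 958 at 20 min and 1220 at 30 min.

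The other genes with the smallest p of their class did not pass. At 1 min these were FRS1, with 567 and 529 CPM in log phase and 678 and 753 at 1 min (log2 fold change 0.37, adjusted p = 1.00, edgeR), and MSD1, with 15.6 and 0 CPM and then 20.7 and 49.1. At 5 min they were VAS1, with 1196 and 1205 CPM in log phase and 1411 and 1611 at 5 min (log2 fold change 0.33, adjusted p = 1.00, edgeR), and SLM5, the asparaginyl enzyme, with 7.38 and 0 CPM and then 12.4 and 14.7. At 15 min MSF1 had 13.3 and 10.6 CPM in log phase and 19.4 and 10.4 CPM. The values of MSD1, SLM5 and MSF1 in replicate 2 rest on at most 6 reads each.

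The cytosolic class held 1.69% and 1.75% of RPF reads in log phase, 1.89% and 2.00% at 1 min, 1.96% and 2.00% at 5 min and 1.88% and 1.92% at 15 min. It held 1.83% at 10 min (95% exact binomial interval 1.73 to 1.93), 1.70% at 20 min (1.60 to 1.79) and 1.97% at 30 min (1.87 to 2.08). Across 30 min the share therefore lay between 1.69% and 2.00%. Both log phase libraries were below every library at 1, 5 and 15 min, a difference that was not tested. The mitochondrial share lay between 0.0162% and 0.0418%, on 18 to 34 reads in each shallow library.

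In the deep libraries without CHX the polarity scores of nearly all synthetase genes, like those of most other genes, were higher at 1 min of starvation than in log phase. The median score of the 21 cytosolic genes was 0.0418 in log phase, 0.131 at 1 min, 0.143 at 5 min and 0.133 at 15 min, and 21, 21 and 20 genes lay above their log phase score, as did 87.6%, 83.6% and 71.1% of 4710 genes. For the 13 mitochondrial genes, each with more than 25 reads in these libraries, the medians were -0.0214, 0.0997, 0.0827 and 0.114, with 12, 11 and 11 genes (92.3%, 84.6% and 84.6%) above log phase. Over all 4710 genes the medians were 0.0474, 0.145, 0.148 and 0.114. Replicate 1 alone gives these values, so they are descriptions with no test. At 15 min with 1 min of CHX in the same pools the medians were 0.122, 0.0332 and 0.107 in that order of gene sets.

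**Figure D4:**
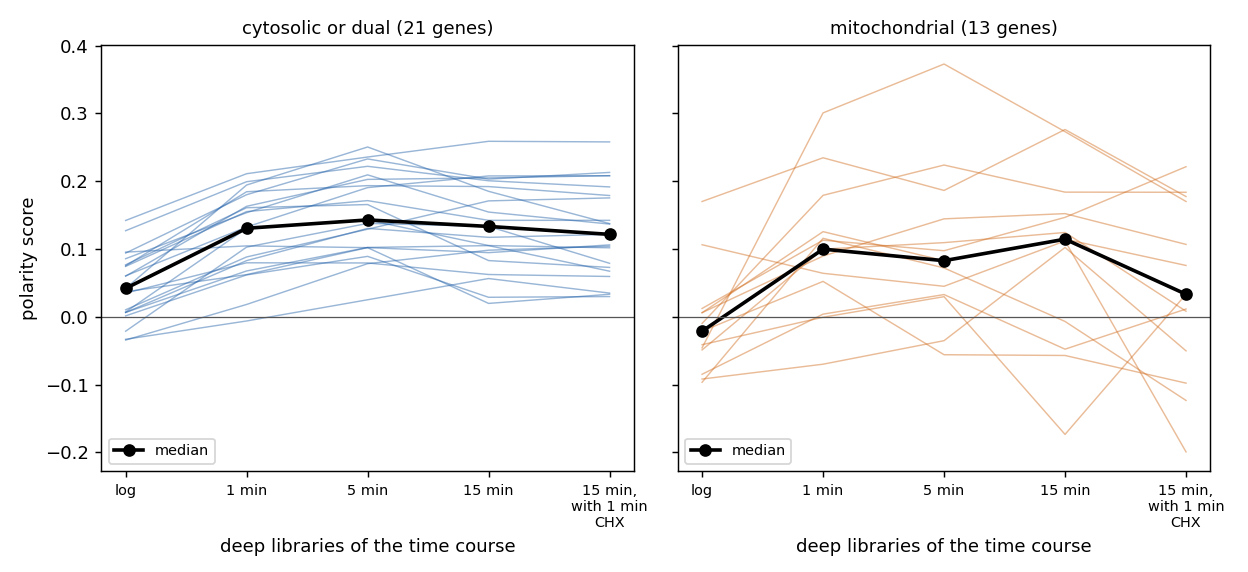
Polarity score of each cytosolic gene (left, blue lines) and mitochondrial gene (right, orange lines) in the deep time course libraries, ending with the 15 min library that had 1 min of CHX, with the class median in black. The cytosolic median goes from 0.0418 in log phase to 0.131 at 1 min and then stays near that level. Mitochondrial genes spread more widely, on 26 to 241 reads per gene and library against 887 to 12625 for cytosolic genes.

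The replicated test covered the 20 cytosolic genes that exceeded 25 reads in each of the 8 libraries, WRS1 and the mitochondrial genes being too low. Of these 20 limma called 1 higher at 1 min and 1 at 5 min, both times TYS1, and none at 15 min or between 1 and 15 min. Over 488 genes 7.17%, 4.3%, 0% and 0.615% were called in these comparisons. At an unadjusted p under 0.05 the cytosolic genes numbered 4, 7, 7 and 1. No all-gene share was set beside these counts, so they are not read as a trait of the class. The median change of the class was 0.06, 0.09 and 0.08 against log phase, with all-gene medians of 0.09, 0.08 and 0.06.

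TYS1, the tyrosyl enzyme and the shortest cytosolic member with 1185 coding bases, had scores of 0.0418 and -0.0924 in log phase, 0.194 and 0.276 at 1 min, 0.250 and 0.213 at 5 min and 0.185 and 0.206 at 15 min. Every library at 1, 5 and 15 min was above both log phase libraries. In the single libraries TYS1 had 0.0254 at 10 min, 0.267 at 20 min and 0.418 at 30 min, on 19, 21 and 25 reads. The 10 min score was below that of log phase replicate 1. The rise was 0.26 at 1 min (SE 0.058, adjusted p = 0.0393, limma), 0.26 at 5 min (adjusted p = 0.0484) and 0.22 at 15 min (adjusted p = 0.0667). Its replicate 2 values rest on 35 to 59 reads, and without log phase replicate 2 the rise at 1 min was 0.19 (adjusted p = 0.233). Leaving out any other library changed a call at 5 min as well, except log phase replicate 1, with adjusted p from 0.0506 to 0.259. SES1 had the smallest p between 1 and 15 min, with 0.161 and 0.200 at 1 min and 0.0828 and 0.0427 at 15 min (change -0.12, SE 0.043, adjusted p = 0.181, limma).

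With the replicate block the cytosolic genes called higher were 4 of 20 at 1 min (35.2% of all genes), 9 of 20 at 5 min (36.3%) and 5 of 20 at 15 min (23%). KRS1, FRS2 and YHR020W joined TYS1 at 1 min. At 15 min ALA1, GUS1, ILS1 and YHR020W did so. At 5 min the genes added were ALA1, CDC60, FRS2, GUS1, ILS1, KRS1, YHR020W and YDR341C. Blocked by the pools of the sample key instead, 1 gene (TYS1) was called at 1 min and 0 at 5 and 15 min, so the added calls rest on pairing by replicate number.

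By the median, the rise of polarity at 15 min was larger in the pretreated libraries than in those without CHX, for cytosolic genes and over all genes. The median difference was 0.16 for the cytosolic class and 0.14 over 489 genes. It was positive in 19 of 20 cytosolic genes, with no all-gene share set beside this count. None of the 20 passed limma's test of this difference, in which 2.45% of genes did. At an unadjusted p under 0.05 there were 9 of the 20, with no all-gene share set beside them. VAS1 had an adjusted p of 0.0570. The cytosolic class started from other levels, with a median of -0.116 and -0.102 in pretreated log phase against 0.0418 and 0.0622 in log phase without CHX. After 15 min the medians were 0.0471 and 0.154 with pretreatment and 0.133 and 0.111 without. For counts the same test called none of the 34 synthetase genes beside 0.614% of 5377 genes. At an unadjusted p under 0.05 there were 2 cytosolic and no mitochondrial genes, again without an all-gene share. At 15 min the time course also had 1 library with CHX, with a cytosolic median of 0.122 beside 0.133 in the deep library without. No log phase library of the time course had CHX. For the rise, CHX, fragment selection and library protocol therefore differed together between the experiments and cannot be told apart.

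At 1 day of growth in YPD the share of reads on cytosolic enzymes was lower, and that on mitochondrial enzymes higher, than in log phase. Cytosolic enzymes held 2.12% of RPF reads in YPD log phase (95% exact binomial interval 2.09 to 2.16), 0.751% at 1 day (0.729 to 0.774) and 0.370% at 5 days (0.342 to 0.401). Mitochondrial enzymes held 0.0213% (0.0179 to 0.0252), 0.0333% (0.0288 to 0.0384) and 0.0136% (0.0086 to 0.0204), on 139, 192 and 23 reads. The number of cytosolic reads for each mitochondrial read was 99.6 in log phase, 22.5 at 1 day and 27.3 at 5 days. With 1 library per condition these differences have no replicate check.

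Relative to log phase, on TMM-scaled CPM with a pseudocount of 1 CPM, 20 of 21 cytosolic genes were at least 2-fold lower at 1 day and all 21 at 5 days. Over all genes 24.9% were that far lower and 30.3% that far higher at 1 day, and 36.1% and 30.1% at 5 days. The median log2 ratio of the cytosolic class was -1.54 at 1 day and -2.11 at 5 days, beside 0.10 and -0.22 over all genes. Its summed reads were 3.16-fold lower at 1 day (95% counting interval 3.05 to 3.27) and 4.39-fold lower at 5 days (4.05 to 4.76). No cytosolic gene was higher at either time.

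The fall at 1 day was uneven among the cytosolic genes. WRS1 had 448 CPM in log phase, 39.9 at 1 day and 59.0 at 5 days, from 292, 23 and 10 reads, and was 12.5-fold lower at 1 day (8.20 to 20.1). KRS1 had 1433, 221 and 265 CPM and was 7.27-fold lower at 1 day (6.04 to 8.82). YHR020W had 914, 146 and 183 CPM and was 7.01-fold lower at 1 day (5.57 to 8.92).

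At the other end DPS1 had 759 CPM in log phase, 642 at 1 day and 142 at 5 days, and was 1.32-fold lower at 1 day (1.15 to 1.52) and 4.11-fold lower at 5 days (2.73 to 6.47). The intervals of WRS1 and DPS1 at 1 day did not overlap. At 5 days the largest falls were those of TYS1 (575 to 64.9 CPM, 6.79-fold, 3.75 to 13.7), YDR341C (759 to 94.4 CPM, 6.16-fold, 3.76 to 10.9) and ILS1 (2025 to 254 CPM, 6.12-fold, 4.52 to 8.50). Their intervals overlap those of most other cytosolic genes.

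Of the 13 mitochondrial genes 10 had positive log2 ratios at 1 day, with a median of 0.65, 2 past 2-fold higher and 1 past 2-fold lower. Over all genes 2909 of 5419 had positive ratios, with a median of 0.10. Past 2-fold higher were 30.3% of them, and 24.9% were past 2-fold lower. None reached 50 reads in these libraries, so no gene of the class met the depth set for naming. Summed over the class, scaled reads were 1.40 times those of log phase at 1 day (1.12 to 1.75) and 0.831 times at 5 days (0.510 to 1.30). At 1 day MSF1 (10 and 26 reads, ratio 2.63, 1.23 to 6.12) and SLM5 (9 and 21 reads, ratio 2.36, 1.04 to 5.86), chosen after their values were seen, were the genes whose counting interval lay above 1. At 5 days 1 gene, MSK1, was past 2-fold higher and 6 were past 2-fold lower, beside 30.1% and 36.1% of all genes. Of the class 3 genes, MSM1, MSD1 and DIA4, had 0 reads, where a count of 0 allows up to 3 reads. The class median at 5 days was -0.76 as fitted and 0.15 with those genes set to 3 reads (0.15 over all genes treated alike), so its direction was not detectable at this depth.

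**Figure D5:**
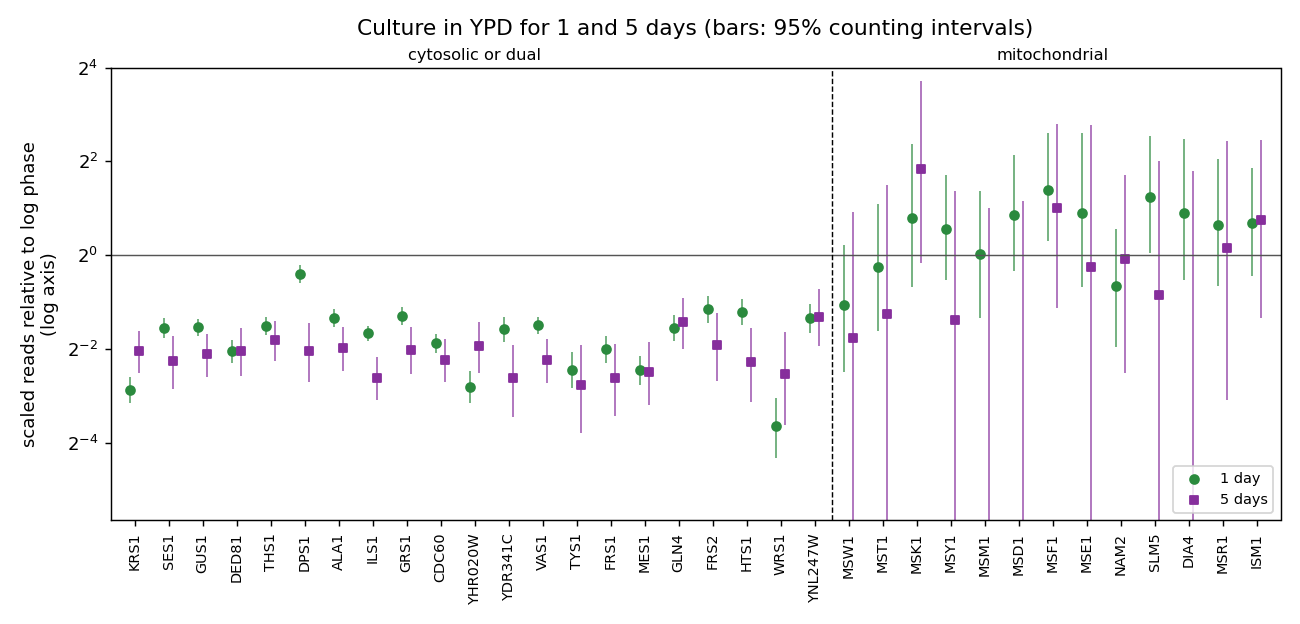
Scaled RPF reads of each gene at 1 day (green circles) and 5 days (purple squares) of growth in YPD relative to log phase (log axis), with 95% counting intervals as bars (cut off at the lower edge), and no point where the day had 0 reads. All 21 cytosolic genes lie below 1 at both times, while most mitochondrial intervals include 1.

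In YPD log phase, at 1 day and at 5 days the cytosolic polarity medians over genes with more than 25 reads were 0.0218, 0.168 and 0.0165, beside 0.0171, 0.176 and -0.0137 over all genes of that depth. The cytosolic medians rest on 21, 20 and 13 genes, so the sets differ between the libraries. Above 0 were 13, 19 and 7 of these genes, and no all-gene share above 0 was set beside them.

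Other genes of aminoacylation were taken from a list of 6. In the pretreated libraries none passed the count test and none of the 3 deep enough passed the polarity test. At an unadjusted p under 0.05 there was 1 gene in each by edgeR and limma, and 1 in the counts by DESeq2. All-gene shares were not set beside these. With the replicate block GRS2 was called in counts (adjusted p = 0.0233, edgeR) and ARC1 in polarity (adjusted p = 0.00576, limma). ARC1, a cofactor that binds the methionyl and glutamyl enzymes, followed the cytosolic class with 666 TPM in YPD log phase, 400 at 1 day and 140 at 5 days (2.52-fold and 3.61-fold lower in scaled reads). GRS2, a paralog of GRS1, had 12, 39 and 7 reads, a ratio of 3.29 at 1 day (1.69 to 6.90). Reads that match both GRS1 and GRS2 could have been assigned to either, which was not tested. PET112, HER2 and GTF1, subunits of the mitochondrial enzyme that makes Gln-tRNA from Glu-tRNA, and AIM10, similar to prolyl enzymes, had 6 to 15 reads each in YPD log phase. PET112 reached 18 and 9 reads at 1 and 5 days, ratios of 3.04 (1.16 to 9.35) and 7.53 (2.39 to 25.7). At 5 days GTF1 had 12 reads against 13 in log phase (ratio 4.63, 1.93 to 11.02). The other ratios of these low-count genes had intervals that include 1. They were 0.779 for GTF1 at 1 day, and at 1 and 5 days 1.14 and 1.255 for HER2 and 1.62 and 0.669 for AIM10.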

How the data were processed

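The authors deposited a table per RPF library with raw counts per gene and a polarity score per gene, neither normalized between libraries. Libraries without CHX were trimmed with Cutadapt, cleared of noncoding RNA, aligned to R64-1-1 with bowtie, stripped of duplicates by their molecular identifiers and assigned to genes by htseq-count. For pretreated libraries the fragments were size-selected and polyadenylated. Of these tools no version is given in the sources used here. Genes not listed in a table were set to 0. Coding lengths and sequences came from the RefSeq annotation of R64, in which locus tags matched for 5762 of 5767 genes.

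In R 4.3.3, edgeR 4.0.16 tested counts by quasi-likelihood after filterByExpr and TMM scaling, and DESeq2 1.42.0 served as an alternative. For polarity limma 3.58.1 (trended eBayes) was fitted to genes that exceeded 25 reads in all libraries compared. P-values were adjusted over all genes tested (Benjamini-Hochberg). Since separate cultures are not stated for replicates, p-values measure the spread between these libraries. Multi-day intervals are exact binomial. The codon adaptation index took 137 ribosomal protein genes as reference. Other steps used Python 3.11.15 and scipy 1.17.1. Fits were tested on simulated data.

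Members and lists were chosen with earlier results of these data known. All 34 are named. Values per library are given for up to 4 called members per comparison and class, otherwise for the member with the smallest p, and for the highest and lowest members by TPM. For multi-day growth they are given for the 3 largest ratios per class with at least 50 reads, and the 13 pairs are given by TPM ratio. The test of the difference between experiments was added after seeing the data. The alternatives tried were other scalings, filters, read minimums and pseudocounts, DESeq2, a fit without the trend, the replicate block, fits on 2 time points and leaving out each library.

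Starved and unstarved cells were portions of a culture, and the time course labels number its pools. Differences between replicates 2 and 1 correlated across genes between log phase and 15 min with r = 0.434 over 4714 genes in the pretreated libraries, and between time points with r = 0.795 to 0.845 over 933 genes in the time course, where depth also follows the number. Replicate numbers were therefore taken to pair the libraries, and blocked values are given beside the results they change. RNA libraries and glucose readdition samples were not used here.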

Additional observations from a re-analysis of the deposited data

How the results depend on the processing

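Leaving out 1 library gave 0 to 25 members called higher for pretreated polarity (18 in the full fit), with 0 without log phase replicate 1 and 0 without log phase replicate 2. For time course polarity it gave 0 to 1 at 1 min and 0 to 1 at 5 min. TYS1 at 1 min was lost without log phase replicate 2, either 1 min library or either 5 min library, and at 5 min without any library but log phase replicate 1. With the replicate block 2 members were called higher in pretreated counts, 1 in time course counts at 15 min, and 4, 9 and 5 in time course polarity at 1, 5 and 15 min. The block changed no other count of calls by over 1.5 times. The block by the pools of the sample key, added after seeing the data, in which the 15 min replicates have the opposite pools, gave 1, 0 and 0 in polarity at 1, 5 and 15 min and 0 in counts at 15 min. At 1 min 0 remained with only the 2 time points, over 10 reads and over 100 reads, and at 5 min 0 with no trend, only the 2 time points and over 10 reads. In these the cause was not tested, except that over 100 reads TYS1 was not among the 6 members left, of which ILS1 was called at 5 min. Scaling to library totals gave cytosolic multi-day medians of -1.38 and -2.49, with all-gene medians of 0.26 and -0.57. Without ribosomal protein genes in the denominator the log2 ratio of the cytosolic share was -0.30 (pretreated 15 min), 0.052 (time course 15 min), -1.78 (1 day) and -2.79 (5 days), against -0.11, 0.14, -1.50 and -2.52 with them, and the mitochondrial ratio at 1 day was 0.37 against 0.65. Of the other counts and medians 245 stayed within 1.5 times or within their error. For 10, 20 and 30 min and for multi-day growth no paired analysis was possible because each had 1 library. Mitochondrial changes in the time course are limited by the depth of replicate 2, and none could be tested over 100 reads.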
